A study of Mus musculus with 8 samples.

Results

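Bcl11b chromatin immunoprecipitation and sequencing (ChIP-seq) signal was examined across a stretch of 1 Mb of mouse chromosome 14 that holds the genes Ndfip2 and Spry2. The chromosome was cut into windows of 1 Mb from its first base (mm10), and the members were all intervals with a midpoint in the window that holds both genes. They numbered 49 of the 93708 intervals deposited for the whole series. The stretch had been singled out because its signal differed between the genotypes compared here. The genotype difference over these members is therefore a description and carries no test. The edges of the window are positions and not values. The tested interval nearest to the lower edge inside the window lay 164.9 kb from it and had a log2 fold change of -0.67, and the one outside lay 477.4 kb from it with -0.35. At the upper edge, the interval inside lay 97.0 kb away with -0.77 and the one outside lay 164.1 kb away with -2.93.

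The series compares freshly isolated thymocytes of Bcl11b+/N440K mice with those of Bcl11b+/+ mice. The first genotype carries 1 allele with the N440K change, in which lysine replaces an asparagine of the protein, beside 1 wild type allele. The ChIP libraries numbered 3 for N440K and 3 for wild type, all made from thymus with 1 antibody against Bcl11b. Input DNA, which the labels list for 2 wild type samples, was not used here. The labels used here give no age, sex or strain, and do not say whether replicates came from separate animals or whether the antibody binds both forms of the protein equally. The p-values printed for other genes thus rest on library-to-library spread that may be technical. Without inputs of both genotypes, a difference in binding and one in DNA copy number cannot be told apart in this stretch.

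Bcl11b, a zinc finger protein that binds DNA, is needed by developing T cells to enter and keep their lineage. Spry2 encodes Sprouty 2, an inhibitor of the Ras and ERK cascade downstream of receptor tyrosine kinases. It is induced by that same cascade and so acts in a negative feedback loop, and Sprouty proteins also dampen antigen receptor signalling in T cells. Ndfip2 encodes a membrane adaptor that binds ubiquitin ligases of the Nedd4 family, such as Itch, and switches them on. Together with its relative Ndfip1 it restrains activated T cells. Next to Ndfip2 lies Rbm26, which encodes an RNA-binding protein of nuclear RNA decay. The long gap between Ndfip2 and Spry2 holds several long non-coding RNA genes and no protein-coding gene.

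The bases before the start sites of the 3 protein-coding genes are shown because intervals at the Ndfip2 and Rbm26 starts had similar signal in both genotypes and those at the Spry2 start had less in N440K. Each line gives the 250 bases before the start, 5′ to 3′ on the gene's own strand, from RefSeq on GRCm38.p6, which shares its coordinates with mm10. Capitals mark matches to any of 5 motifs, searched on both strands. These were TGACCA, described for the paralog BCL11A, then TGTGGT, bound by Runx factors, then AGGAAG, bound by Ets factors, then CAGNTG, the E-box letters bound by E proteins, and then AGATAA, bound by Gata factors. No 2 matches overlapped in these windows.
Spry2, minus strand, chr14:105896820-105897069: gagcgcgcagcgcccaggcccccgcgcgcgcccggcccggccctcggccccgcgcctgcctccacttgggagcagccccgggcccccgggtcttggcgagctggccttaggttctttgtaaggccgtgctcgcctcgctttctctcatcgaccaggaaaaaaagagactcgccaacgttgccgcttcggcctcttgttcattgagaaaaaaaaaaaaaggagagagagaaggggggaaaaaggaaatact
Ndfip2, plus strand, chr14:105258373-105258622: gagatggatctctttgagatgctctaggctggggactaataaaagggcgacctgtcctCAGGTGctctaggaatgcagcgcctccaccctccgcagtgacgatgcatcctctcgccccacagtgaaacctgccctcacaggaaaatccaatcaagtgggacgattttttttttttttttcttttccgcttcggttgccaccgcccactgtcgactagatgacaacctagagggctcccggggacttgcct
Rbm26, minus strand, chr14:105177315-105177564: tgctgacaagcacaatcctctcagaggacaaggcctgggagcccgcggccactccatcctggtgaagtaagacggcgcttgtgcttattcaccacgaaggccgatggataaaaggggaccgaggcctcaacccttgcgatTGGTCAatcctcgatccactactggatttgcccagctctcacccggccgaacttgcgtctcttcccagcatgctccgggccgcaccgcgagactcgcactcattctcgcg
The Spry2 window held none of the 5 motifs. The Ndfip2 window held 1 CAGNTG, and 44.8% of the 32851 RefSeq promoter windows of this length hold that motif. The Rbm26 window held 1 TGACCA on its opposite strand, and 11.4% of promoter windows hold it. The shares were 14% for the Runx letters, 29.5% for the Ets letters and 9.99% for the Gata letters. G and C made up 62.4%, 53.2% and 59.6% of the Spry2, Ndfip2 and Rbm26 windows, against a median of 52.4% over all of them. Of the 3 windows only that of Rbm26 overlaps an interval. The Ndfip2 window ends at 105258622, before the interval that starts at 105258740. The Spry2 window lies between the intervals that end at 105896816 and start at 105897303. For these 2 genes the motif counts thus describe bases beside the intervals. Apart from that overlap, the sequences under the intervals were not used here.

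At the Ndfip2 start, Bcl11b signal was the strongest of the window and was similar in both genotypes. The interval from 105258740 to 105258940, inside the gene body and centred 0.22 kb after the start, had 44.3, 42.1 and 47.9 CPM in the N440K libraries, against 37.8, 51.0 and 34.3 CPM in the wild type libraries. CPM scales each count to the library's reads in tested intervals, after TMM correction (trimmed mean of M-values). The N440K libraries lay inside the wild type range, with means of 44.8 ± 2.92 CPM in N440K and 41.1 ± 8.82 CPM in wild type (SD, n = 3 each). The log2 fold change was 0.12 ± 0.15 (SE). A weaker neighbour centred 0.63 kb after the start had 6.09, 12.8 and 12.5 CPM in N440K and 14.2, 11.1 and 10.3 CPM in wild type, so N440K replicate 1 was the lowest of 6 libraries there. Its log2 fold change was -0.16 ± 0.29. The third Ndfip2 interval, centred 37.74 kb into the gene, had 9.41, 7.32 and 8.33 CPM in N440K, against 5.58, 4.53 and 8.15 CPM in wild type. It had the largest positive log2 fold change of the window, 0.45 ± 0.35, and its groups overlapped.

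At Rbm26 the interval at the start site also kept its level. It spans 105177304 to 105177504, is centred 0.09 kb before the start, and had 25.5, 24.4 and 27.1 CPM in N440K and 27.3, 21.4 and 28.3 CPM in wild type libraries. The means were 25.6 ± 1.34 CPM in N440K and 25.7 ± 3.73 CPM in wild type, the second highest level in the window. Its log2 fold change was 0.01 ± 0.19. The interval 105176667 to 105176867 beside it had 11 ± 4.12 CPM in N440K and 10.5 ± 2.62 CPM in wild type. Deeper in the gene, the interval from 105164800 had 3.32, 4.27 and 6.25 CPM in N440K, against 4.34, 7.82 and 9.44 CPM in wild type, with overlapping groups. Of the 6 tested intervals in Rbm26 and Ndfip2, 2 had a negative log2 fold change and their median was 0.01. Relative to the wild type libraries, their N440K library medians were 0.06, 0.08 and 0.08 and their wild type library medians -0.13, 0.06 and 0.27 on the log2 scale, so N440K lay inside the wild type range. Summed over the 6, N440K had 102% of the wild type signal. Another 3 untested intervals of Rbm26 averaged 3.16 to 4.10 CPM in N440K and 3.15 to 6.07 CPM in wild type.

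At Spry2, signal was spread over a chain of modest intervals and each of them had less in N440K. The 9 tested intervals in or within 10 kb of the gene reached at most 16.2 CPM on average over the 6 libraries. Summed over the 9, signal was 57.0, 95.8 and 61.4 CPM in the N440K libraries, against 108, 129 and 122 CPM in the wild type libraries. The groups did not overlap, and N440K replicate 2 stood nearest to wild type. The means were 71.4 ± 21.2 CPM in N440K and 120 ± 10.8 CPM in wild type, so N440K had 59.7% of the wild type signal. All 9 log2 fold changes were negative, from -1.19 to -0.59, with a median of -0.77. Without N440K replicate 1, 2 or 3 that median was -0.57, -1.04 or -0.58, over 10 intervals each.

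Within this group the upstream side and the gene body had log2 fold changes in the same range. Centred 0.58 kb before the start, the interval from 105897303 to 105897503 was the strongest, with 10.5, 15.9 and 12 CPM in N440K and 16.7, 25.9 and 16.3 CPM in wild type. Its groups were apart by a narrow margin, and its log2 fold change was -0.65 ± 0.24. The interval just inside the start, 105896616 to 105896816 and centred 0.10 kb after it, had 6.64, 12.2 and 8.85 CPM in N440K, against 13, 11.9 and 16.3 CPM in wild type. Here N440K replicate 2 lay above 1 wild type library. Inside the body, the interval from 105895956 had 7.75, 15.2 and 4.68 CPM in N440K and 14.2, 17.7 and 15.9 CPM in wild type, and its neighbour from 105896199 had 7.75, 14.6 and 6.25 CPM in N440K and 13.6, 16.1 and 14.6 CPM in wild type. At both, N440K replicate 2 was at the wild type level while replicates 1 and 3 were well below it. Furthest into the gene, 1.83 kb after the start, the interval from 105894885 had 4.98, 4.27 and 5.73 CPM in N440K, against 10.5, 11.5 and 12.4 CPM in wild type. All 3 N440K libraries were low there, and this was the largest difference of the group, -1.19 ± 0.33. The interval from 105895162 had 3.88, 9.76 and 6.77 CPM in N440K and 11.8, 11.5 and 12.9 CPM in wild type. On the far side, 3 intervals between 1.77 and 6.16 kb before the start had log2 fold changes of -0.76, -0.82 and -0.77. Neighbouring intervals can share DNA fragments and vary together, so these are not 9 independent measurements.

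**Figure D1:**
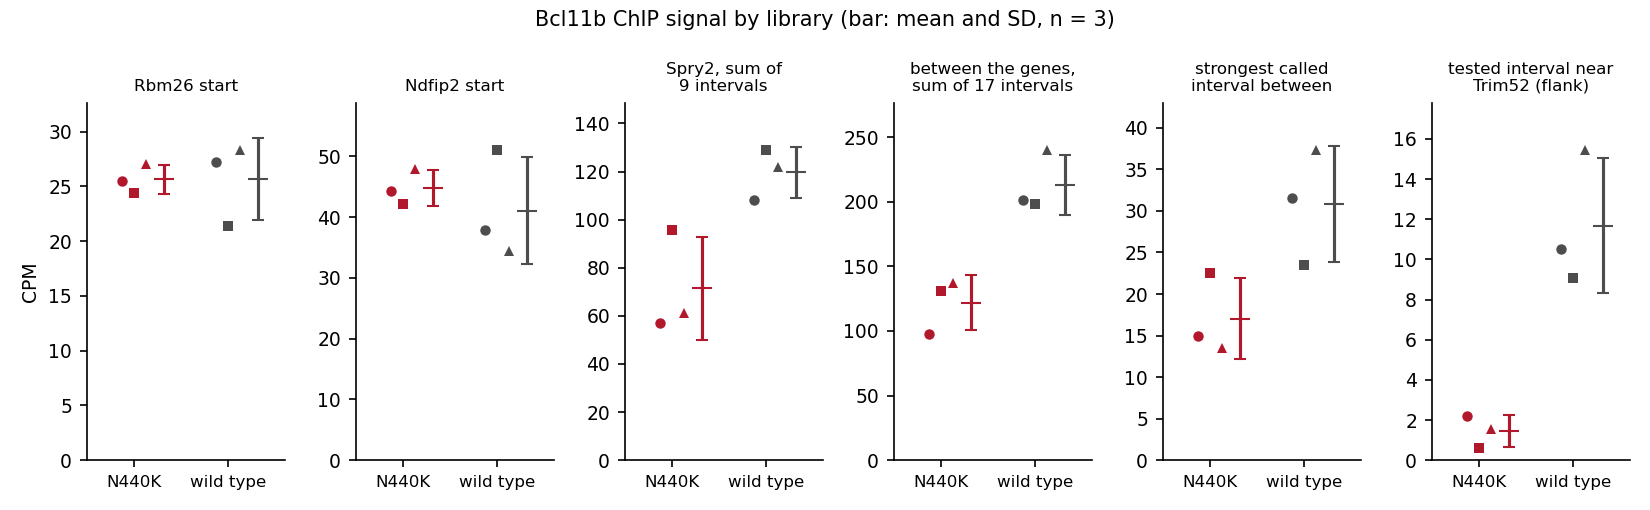
Bcl11b ChIP signal in CPM by library for single intervals at the Rbm26 and Ndfip2 starts, for the sums at Spry2 and between the genes, for the strongest called interval between them and for the tested interval in the flank near Trim52. Symbols are replicates 1 (circle), 2 (square) and 3 (triangle), bars give the mean and SD (n = 3), and N440K libraries lie below all wild type libraries in the last 4 panels but not at the Rbm26 and Ndfip2 starts.

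Between the genes, 17 tested intervals lay in the gap that starts after Ndfip2 and ends before Spry2. All 17 log2 fold changes were negative, from -1.77 to -0.14, with a median of -0.86. Summed signal was 97.5, 131 and 137 CPM in the N440K libraries, against 201, 198 and 240 CPM in the wild type libraries. The highest N440K library lay well below the lowest wild type library, and the N440K mean was 57.1% of the wild type mean. The division at the end of Ndfip2 was made after the values had been seen.

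The strongest interval of the gap, 105532390 to 105532590, had 14.9, 22.6 and 13.5 CPM in N440K, against 31.6, 23.5 and 37.3 CPM in wild type. It lies 223.1 kb beyond Ndfip2 and had a log2 fold change of -0.86 ± 0.21. Its N440K replicate 2 and wild type replicate 2 nearly met. Beside it, the intervals from 105532864 and 105533560 had 5.01 ± 2.04 and 4.75 ± 1.82 CPM in N440K, against 8.29 ± 0.316 and 10.3 ± 2.87 CPM in wild type. These 3 neighbours together summed to 26.8 ± 6.95 CPM in N440K and 49.4 ± 5.62 CPM in wild type.

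An isolated interval from 105603024 to 105603224, 288.7 kb from Spry2, had 3.88, 9.15 and 10.9 CPM in N440K, against 18.0, 18.5 and 21.0 CPM in wild type. The wild type libraries were tightly grouped and the N440K libraries were all lower, N440K replicate 1 most so. Its log2 fold change was -1.26 ± 0.27. Within the long non-coding RNA gene Gm6145, the interval from 105639409 had 3.32, 2.44 and 1.04 CPM in N440K, against 6.20, 6.59 and 10.3 CPM in wild type. At -1.77 ± 0.47 this was the largest difference of the window, on a low signal of 2 to 6 reads per N440K library. Another low interval, from 105475127, had 1.11, 3.05 and 3.12 CPM in N440K, against 6.82, 7.41 and 6.44 CPM in wild type, with a log2 fold change of -1.49 ± 0.47.

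Towards Spry2, 159.5 kb from it, the interval from 105732267 had 4.43, 6.71 and 7.29 CPM in N440K, against 13, 16.5 and 12.4 CPM in wild type. Its 2 neighbours lie in the same chain. The interval from 105732713 had 9.97, 16.5 and 11.4 CPM in N440K and 18.6, 18.1 and 10.7 CPM in wild type, and the interval from 105732975 had 6.64, 11 and 13.5 CPM in N440K and 8.67, 11.1 and 21.0 CPM in wild type. Both had overlapping groups and log2 fold changes of -0.32 ± 0.26 and -0.42 ± 0.29, and their differences from the first interval, which was called, were not tested. At 88.5 kb from Spry2, the interval from 105803217 had 5.54, 3.66 and 8.33 CPM in N440K, against 12.4, 11.5 and 16.3 CPM in wild type. The interval next to it, from 105803015, had 6.29 ± 0.914 CPM in N440K and 9.17 ± 3.29 CPM in wild type, with overlapping groups. In the long non-coding RNA gene 4930449E01Rik, the interval from 105499477 had 11.8 ± 2.17 CPM in N440K and 20.2 ± 3.07 CPM in wild type. The weakest difference in the gap was at 105483102, where N440K had 6.96 ± 2.39 CPM and wild type 7.5 ± 3.44 CPM.

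**Figure D2:**
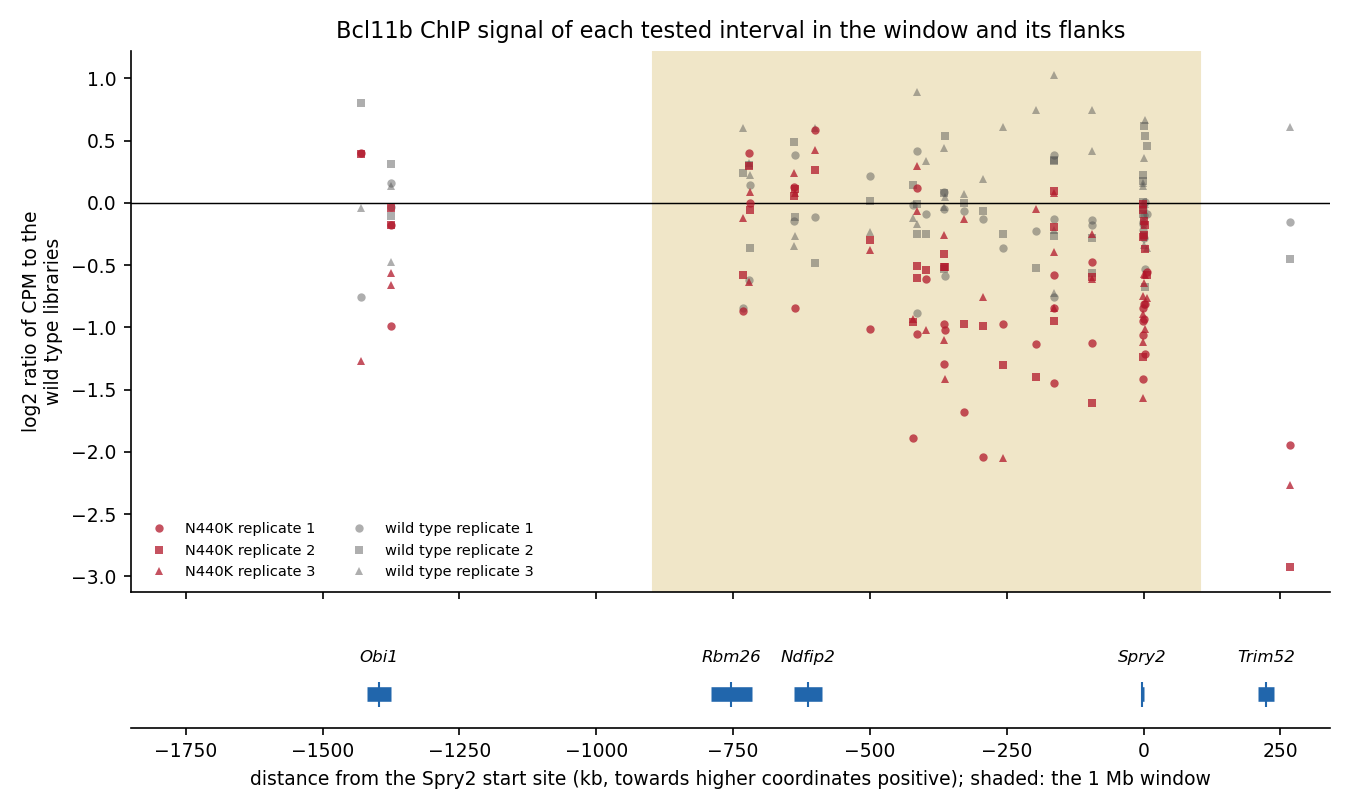
Each point is 1 library at 1 tested interval: the log2 ratio of its CPM to the mean of the wild type libraries (for a wild type library, of the other 2), against the distance from the Spry2 start in kb, with gene bodies below and the 1 Mb window shaded. N440K points scatter around 0 over Rbm26 and Ndfip2, lie mostly below 0 from beyond Ndfip2 to Spry2 (26 of 26 intervals with a negative log2 fold change), and are low again at the single interval beside Trim52 (-1.94, -2.93 and -2.27 for replicates 1, 2 and 3).

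In bins of 100 kb, the median log2 fold change was 0.01 at Rbm26 and 0.12 at Ndfip2, over 3 tested intervals each. The next bins towards Spry2 had -0.61, -0.65, -0.91, -1.52, -0.64, -0.79 and -0.77, over 1, 4, 4, 2, 4, 10 and 1 tested intervals. The sign of the bin medians thus turned between the last interval in Ndfip2 and the first one beyond it. That one, 105397545 to 105397745, had 3.32, 6.10 and 5.73 CPM in N440K and 8.67, 7.82 and 6.87 CPM in wild type. The largest bin median rested on 2 intervals. Of the 6 tested intervals in Rbm26 and Ndfip2, 4 had a positive value and 2 a negative one. The negative ones were -0.67, from 105164800 in Rbm26, and -0.16, from 105259154 in Ndfip2.

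Over the whole window, edgeR's quasi-likelihood test called 5 of 32 tested members at a Benjamini-Hochberg adjusted p under 0.05, all of them lower in N440K. The call rate over all 63098 tested intervals was 1.14%, with 0.681% lower and 0.46% higher. Since the window was chosen on this contrast, nothing is read from that count. The 5 were the intervals from 105532390, 105603024, 105639409, 105732267 and 105803217, all in the gap, with none at Spry2 or Ndfip2. That placement depends on the setting. With total counts edgeR called 6, among them the Spry2 interval from 105894885. Without N440K replicate 2 it called the Spry2 interval from 105895956. DESeq2 called 0 of the 32, against 0.0951% of all tested intervals called (0.0618% lower). limma voom called 2, against 0.504% of all (0.231% lower). Without N440K replicate 1 edgeR called 0 members, against 301 calls over all tested intervals. Leaving out N440K replicates 2 and 3 gave 3 and 2, against 588 and 397 over all. Leaving out wild type replicates 1, 2 and 3 gave 1, 2 and 2, against 459, 484 and 435 over all. Nothing is read from these counts either. N440K libraries all lay below wild type libraries at 16 of the 32, against 8.95% of all tested intervals, and all above at 0, against 8.34%. Log2 fold changes were negative for 28 of 32, against 49.5% of all tested intervals.

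The filter on low counts bears on these numbers. It asks for about 4.85 CPM in at least 3 libraries. For the filter, CPM is taken on the reads in all intervals before TMM, so it differs slightly from the CPM printed here. On that measure, 16 of the 32 members reached it in all wild type libraries but not in all N440K libraries. This way of passing favours members with a higher wild type signal, and all 16 had a negative log2 fold change. Among these 16 were 4 of the called members. Of the 13 members that reached it in all 6 libraries, 10 had a negative value, 1 was called, and their median was -0.51. The third Ndfip2 interval, with 0.45, was the 1 member that reached it in all N440K libraries but not in all wild type libraries. Without any filter, signal over all 49 intervals summed to 306, 379 and 357 CPM in the N440K libraries and to 475, 503 and 540 CPM in the wild type libraries, with no overlap. N440K thus had 68.6% of the wild type sum. Groups were apart with N440K lower at 19 of the 49, against 10.6% of all 93708 intervals. The 17 members that were not tested were weak, with at most 25 reads in any library. They summed to 49.3, 48.8 and 50 CPM in N440K and to 70.0, 67.9 and 74.3 CPM in wild type.

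The flanks held very few bound intervals. The 1 Mb below the window held 7 intervals, of which 3 were tested, and the 1 Mb above it held 3, of which 1 was tested. The median over 2096 windows of 1 Mb that held any was 35. In the window itself the N440K library medians were -0.94, -0.46 and -0.595, against -0.13, -0.01 and 0.15 for the wild type libraries, on the log2 scale relative to the wild type libraries. In the lower flank they were -0.18, -0.05 and -0.66 for N440K and -0.03, 0.31 and -0.04 for wild type. All 3 N440K libraries again lay below the wild type libraries, replicates 1 and 2 by less than replicate 3. The 3 tested intervals there summed to 35.4, 41.5 and 26 CPM in N440K, against 42.8, 46.5 and 42.9 CPM in wild type, with no overlap, and N440K had 77.9% of the wild type sum. In the next 1 Mb below that flank, 22 tested intervals gave -0.02, -0.01 and 0.27 for N440K and 0.06, -0.001 and -0.15 for wild type. That window, added after the data had been seen because the flanks held so few intervals, had a median log2 fold change of 0.07. edgeR called 0 of its 22, against 1.14% of all tested intervals, and 1 had an unadjusted p under 0.05, against 12.7%. Nothing is read from a count of 0 at that rate. Over the rest of chromosome 14 the median was 0.02.

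**Figure D3:**
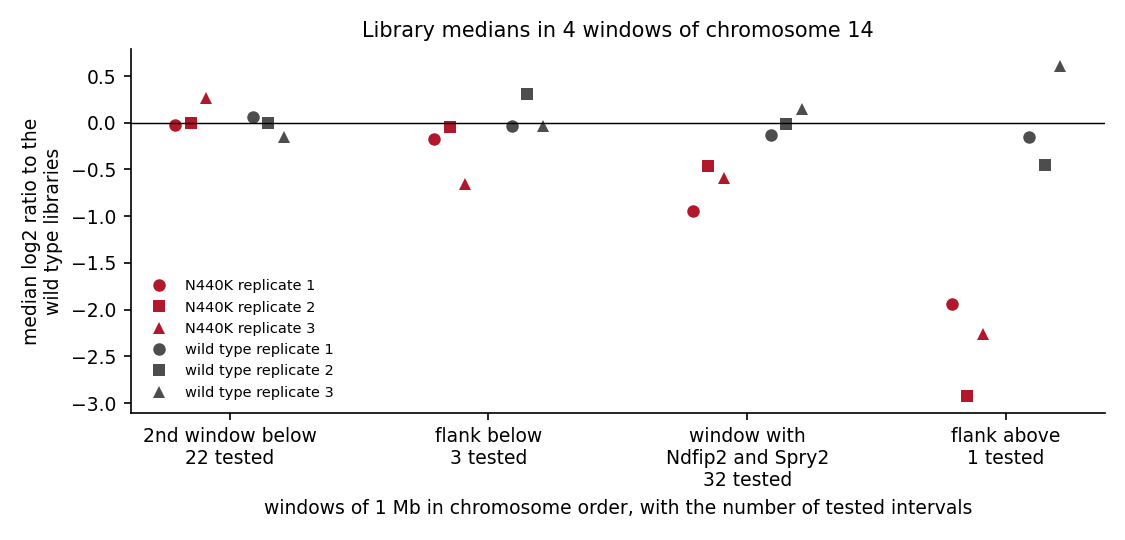
Median log2 ratio of each library to the wild type libraries in 4 neighbouring windows of 1 Mb, with the number of tested intervals below each. All 3 N440K libraries (red) lie below the wild type libraries (grey) in the window with Ndfip2 and Spry2, in the flank below it, by a narrow margin for N440K replicate 2, and in the flank above it, where the value is that of 1 interval.

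In the lower flank, signal lay at Obi1, which encodes a ubiquitin ligase of the replication origin complex, and at Pou4f1, a POU factor of sensory neurons. The interval at the Obi1 start, 104522541 to 104522741, had 24.4, 24.4 and 17.2 CPM in N440K, against 27.3, 26.3 and 29.6 CPM in wild type. Its log2 fold change of -0.35 ± 0.20 did not pass the test (edgeR adjusted p = 0.471). The other Obi1 interval had -0.55 ± 0.30 (edgeR adjusted p = 0.451). The Pou4f1 interval had 4.02 ± 2.58 CPM in N440K and 4.17 ± 1.87 CPM in wild type, with edgeR adjusted p = 0.943.

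Above the window, the signal near Trim52, a gene of the tripartite motif family, was lower still. The tested interval, 106164013 to 106164213 and 28.2 kb from the gene, had 2.21, 0.610 and 1.56 CPM in N440K, against 10.5, 9.06 and 15.5 CPM in wild type. Its log2 fold change was -2.93 ± 0.46, lower in 3 of 3 N440K libraries (edgeR adjusted p = 6.25e-05). Each N440K library was below the 4.85 CPM that the filter asks for, so the interval could enter the test only through wild type. With no filter on low counts it was called as well (edgeR adjusted p = 4.16e-05). DESeq2 also called it, whereas limma voom did not (adjusted p = 0.0509 with limma voom). The interval entered the main test through wild type, where it is high, and nothing is read from these p-values. Both intervals that were too weak to be tested went the same way. The one from 106163554 had 5, 4 and 1 reads in N440K and 10, 10 and 12 reads in wild type. The one from 106217745 had 0 reads in each N440K library and 6, 9 and 12 reads in the wild type libraries. A count of 0 over the 3 N440K libraries allows up to 0.559 CPM (3 reads over the group), so that signal was at least 7.5-fold lower than the wild type mean of 4.19 CPM. This limit covers counting error in N440K only and takes the wild type mean as exact.

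Of 1093 windows of 1 Mb with at least 20 tested intervals, this one had the second lowest median log2 fold change, -0.74, which is the value it was singled out for. It held 49 intervals, more than 62.5% of the windows that held any, and the median level of its tested intervals was 9.84 CPM, against a median of 11.7 CPM over the 1093, where it ranked 190th from the lowest. In the share of intervals that could be tested it was also near the whole, with 65.3% against 67.3%. Likeness to other windows was measured as the root mean square difference, over the 6 libraries, between library medians of log2 CPM centred on each interval's mean. The nearest was the window from 24 to 25 Mb of chromosome 19 (0.160), where 21 of 38 tested intervals belong to Pip5k1b, a gene of a phosphoinositide kinase. Its N440K library medians were -0.56, -0.32 and -0.38, and its wild type medians were 0.10, -0.09 and -0.01. Next came a pair of windows on chromosome 12, the 1 Mb that holds Bcl11b (0.166) and 1 Mb within the immunoglobulin heavy chain locus (0.171). Relative to the wild type libraries, N440K replicate 1 was the lowest library in all 4 windows. The other windows were picked for likeness over these same libraries, so nothing is read from that shared order. On the centred values, the heavy chain window had -0.39 for N440K replicate 1 and -0.40 for N440K replicate 2. With at least 10 tested intervals required, the nearest was the window from 81 to 82 Mb of chromosome 3 (0.119), near Pdgfc, with 13 tested intervals and N440K medians of -0.78, -0.06 and -0.33.

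The relatives of Spry2 lie elsewhere in the genome. The Sprouty and Spred family, feedback inhibitors of the same cascade, had 45 tested intervals at 5 of 6 genes, counted inside gene bodies or nearest within 100 kb. None of the 45 was called, whether by edgeR, by DESeq2 or by limma voom (0 each), against 1.14% of all tested intervals by edgeR. An unadjusted edgeR p under 0.05 was found for 5 of them, against 12.7% of all tested intervals. Their median log2 fold change was -0.06. Spry1 had 9 tested intervals between -0.48 and 0.47, and Spry4 had 4 between -0.24 and 0.08. Spred2, with 28 tested intervals, had the strongest binding of the family. Its interval 3.9 kb outside the body had 54.6 ± 1.18 CPM in N440K and 46.9 ± 3.74 CPM in wild type, higher in 3 of 3 N440K libraries (log2 fold change 0.23 ± 0.14, edgeR adjusted p = 0.51). A second Spred2 interval had 41.7 ± 2.70 CPM in N440K and 41.8 ± 2.96 CPM in wild type (edgeR adjusted p = 0.993), and one at Spred1 had 41.8 ± 3.61 CPM in N440K and 34.6 ± 4.26 CPM in wild type (0.515). The family's smallest p belonged to an interval inside Spred2 with 21.6 ± 6.18 CPM in N440K and 12.3 ± 1.94 CPM in wild type, a log2 fold change of 0.82 ± 0.24 (edgeR adjusted p = 0.0674). A weak one in Spred2 had 8.31, 5.49 and 13.5 CPM in N440K, against 3.72, 0.823 and 6.01 CPM in wild type, with overlapping groups (1.40 ± 0.42, edgeR adjusted p = 0.0869). It passed without N440K replicate 2 (log2 fold change 1.65, edgeR adjusted p = 0.0471) and without wild type replicate 3 (2.17, 0.0301). Each time the library left out was the one nearest to the other group. The interval reached the low-count filter in all N440K libraries but not in all wild type libraries. It thus entered the test through N440K, where it is high, and nothing is read from these p-values. An interval 30.5 kb from Spry1 had 17.6 ± 2.92 CPM in N440K and 24.4 ± 6.38 CPM in wild type, with overlapping groups (-0.48 ± 0.21, edgeR adjusted p = 0.319).

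The partners of Ndfip2 are ubiquitin ligases and an adaptor. Among the Nedd4 family ligases and the adaptor Ndfip1, 9 of 10 genes had 86 tested intervals. Again 0 were called by each of edgeR, DESeq2 and limma voom, against 1.14% of all tested intervals by edgeR, and 4 had an unadjusted p under 0.05 in edgeR, against 12.7%. Nothing is read from a count of 0 at that rate. The median log2 fold change was -0.02. Ndfip1, the closest relative of Ndfip2, had 14 tested intervals between -0.70 and 0.42 with a median of 0.11. Itch, a ligase that Ndfip proteins activate in T cells, had 4 between -0.68 and 0.15. The strongest interval of the list, in the ligase gene Hecw2, had 57.3 ± 7.12 CPM in N440K and 48.5 ± 6.72 CPM in wild type (edgeR adjusted p = 0.507). Intervals in Nedd4l and at Wwp1 followed, with 37.7 ± 6.45 CPM in N440K and 32.4 ± 6.09 CPM in wild type for Nedd4l, and 38.8 ± 7.72 CPM in N440K and 33.1 ± 2.73 CPM in wild type for Wwp1. Neither passed (edgeR adjusted p = 0.614 and 0.659). The smallest p belonged to a weak Hecw2 interval with 2.77, 2.44 and 7.29 CPM in N440K, against 8.05, 7.41 and 10.3 CPM in wild type (-1.0 ± 0.39, edgeR adjusted p = 0.229). It reached the low-count filter in all wild type libraries but not in all N440K libraries, and so entered the test through wild type. Further intervals with small p, in Nedd4l (0.41 ± 0.18) and Hecw2 (0.45 ± 0.21), had edgeR adjusted p of 0.319 and 0.359.

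Along the cascade that Sprouty proteins restrain, from antigen receptor to ERK, 1 of 216 tested intervals at 25 genes was called by edgeR, lower in N440K, and 0 higher, against 0.681% lower and 0.46% higher over all tested intervals, so the count is near the background. Its median log2 fold change was 0.02. By DESeq2 and by limma voom there were 0 calls, while 15 intervals had an unadjusted p under 0.05 in edgeR, against 12.7% of all. The call lay 17.5 kb from Dusp6, the gene of a phosphatase that switches off ERK and, like Spry2, is induced by it. That interval had 4.98, 5.49 and 7.29 CPM in N440K, against 11.1, 14 and 14.2 CPM in wild type. All 3 N440K libraries lay below all wild type libraries, with a log2 fold change of -1.15 ± 0.31 (edgeR adjusted p = 0.0454). The interval reached the low-count filter in all wild type libraries but not in all N440K libraries. It thus entered the test through wild type, where it is high, and nothing is read from this p-value. The call was lost under 11 of 13 alternatives, with edgeR adjusted p of 0.0512 to 0.183 when 1 library was left out. The 12 tested intervals of Dusp6 had a median of -0.02. The strongest intervals of the list were 1 in Rasa1, a Ras GTPase activating protein, and 2 given to Rasgrp1, the exchange factor that activates Ras in thymocytes. The Rasgrp1 pair lies 75.9 and 79.5 kb from the gene body. Rasa1 had 78.4 ± 2.59 CPM in N440K and 81.8 ± 11.7 CPM in wild type. The Rasgrp1 pair had 71.9 ± 4.24 and 76.2 ± 8.94 CPM in N440K, against 76.2 ± 6.86 and 76.9 ± 2.59 CPM in wild type. These 3 had edgeR adjusted p of 0.905, 0.85 and 0.981. An interval 7.3 kb from Rasgrp1 had 6.64, 11 and 5.73 CPM in N440K, against 1.24, 5.35 and 0.429 CPM in wild type (1.6 ± 0.49, edgeR adjusted p = 0.0918). It passed with loess offsets (1.89, edgeR adjusted p = 0.0355) and without wild type replicate 2 (3.22, 0.0107), the wild type library with the highest signal there. It reached the low-count filter in all N440K libraries but not in all wild type libraries. It thus entered the test through N440K, where it is high, and nothing is read from these p-values. The interval 1.1 kb from Zap70, the kinase of the antigen receptor, had 13.7 ± 1.65 CPM in N440K and 7.13 ± 1.63 CPM in wild type (0.91 ± 0.30, edgeR adjusted p = 0.114).

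**Figure D4:**
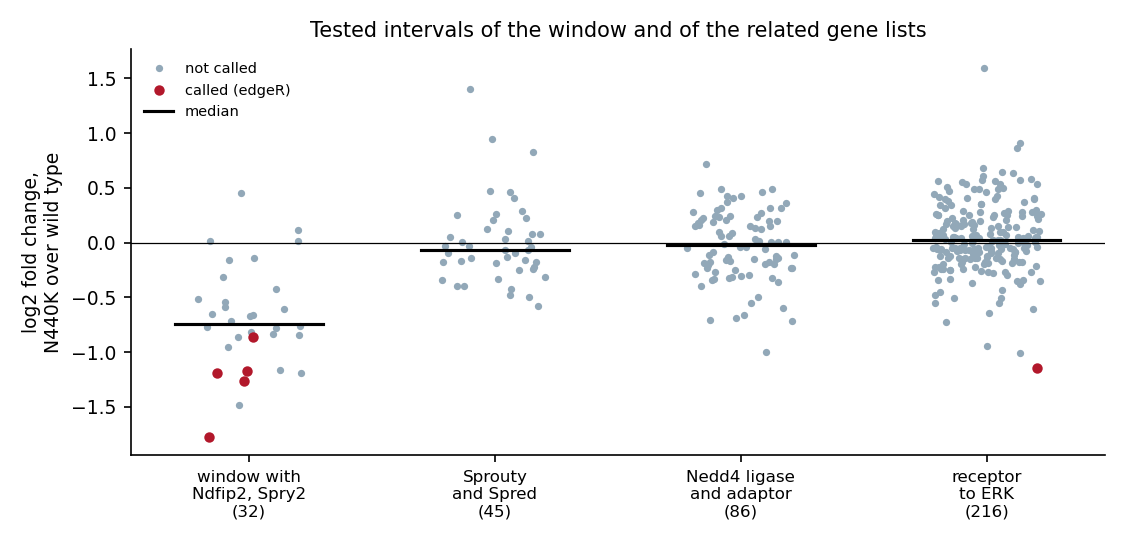
Log2 fold change (N440K over wild type) of each tested interval in the window and in 3 lists of related genes, with the number of intervals in brackets, the median as a line and intervals called by edgeR in red. Medians are -0.74 in the window, where the values are a description, and -0.06, -0.02 and 0.02 in the Sprouty and Spred, Nedd4 and receptor to ERK lists.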

How the data were processed

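Per the labels' protocols, thymocytes were cross-linked, chromatin was precipitated with an antibody against Bcl11b, and sequencing used a HiSeq machine. With no role or order, the submitters' processing notes list mm10, edgeR 3.38.2, MACS2, bedtools, Bowtie2 2.3.5, fastp 0.20.0 and SAMtools 1.9. No source used here says if libraries were pooled to call peaks. The authors deposited raw read counts per interval, for 93708 intervals, each 201 bp wide, and 6 ChIP libraries. They also deposited CPM values for 63098 of them, from which 100% of values came back as whole reads (tolerance 0.01).

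Counts in all intervals totalled 1812952 to 2123877 in N440K and 1787899 to 2661343 in wild type libraries. Chi-square per degree of freedom between libraries of one genotype was 1.24 to 1.42. Intervals were filtered with filterByExpr (63098 kept), scaled with TMM and given to edgeR's quasi-likelihood test, genotype being the only term, two-sided, with Benjamini-Hochberg adjustment over all of them. The SE is the log2 fold change divided by the root of the F statistic. Library medians used log2 CPM with a prior count of 2. The fit was tested on simulated data. Counts recovered from the CPM table gave the same 720 calls.

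Gene positions and promoter sequences came from RefSeq on GRCm38.p6. These give gene bodies without exons. The window, gene lists and rules were chosen with earlier results of these data known. An interval was given to the gene body that holds it or, within 100 kb, to the nearest. Named were, in the window, intervals within 10 kb of Spry2 or Ndfip2, the 10 strongest, the 5 with the largest fold change in each direction and those called. In the flanks and lists they were those called and the 3 strongest, and in the lists also the 3 with the smallest p. Intervals of the window outside this rule were named after their values were seen. Alternatives were DESeq2, limma voom, other scalings and filters, a replicate block, other window edges and leaving out each library, with the filter applied anew. Software was R 4.3.3 (edgeR 4.0.16, limma 3.58.1, DESeq2 1.42.0) and Python 3.11.15 (pandas 2.3.3, numpy 2.4.6, matplotlib 3.10.9).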

Additional observations from a re-analysis of the deposited data

How the results depend on the processing

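The median log2 fold change of the window with Ndfip2 and Spry2 (-0.741) was between -0.816 and -0.545 with every alternative tried, including summed signal and windows moved by 250 kb. That of the upper flank, which is 1 interval, was between -3.31 and -2.6. The lower flank (-0.345) ranged from -0.417 to -0.0535 when 1 library was left out, the value nearest 0 coming without N440K replicate 3. The 5 calls in the window became 6 with total counts, 0 with DESeq2, 2 with limma voom, 2 among intervals at or above the median CPM, 3 with loess offsets and 0 to 3 with 1 library left out. All calls (720) became 60 with DESeq2, 318 with limma voom, 327 at or above the median CPM and 301 to 588 with 1 library left out (301 without N440K replicate 1). The Sprouty and Spred list had 0 to 1 calls with 1 library left out. The receptor to ERK list (1 call) had 0 with DESeq2, limma voom, no filter, the replicate block or intervals at or above the median CPM, and 0 to 1 with 1 library left out. The Dusp6 call was lost with each library left out and with loess offsets. The call counted without wild type replicate 2 and with loess offsets was the interval 7.3 kb from Rasgrp1, which was higher in N440K. The cause was not tested. Among the named intervals, signs turned under at least 1 alternative for 10, of which 6 lie in the window. Over all alternatives those 6 had -0.2 to 0.32 (from 105176667) and -0.11 to 0.1 (105177304) at Rbm26, -0.02 to 0.33 (105258740) and -0.32 to 0.12 (105259154) at Ndfip2, and -0.36 to 0.26 (105483102) and -0.67 to 0.05 (105732975) in the gap. The Pou4f1 interval had 0.13 with loess offsets and -0.46 to 0.35 with 1 library left out. The second Spred2 interval had -0.03 at or above the median CPM, -0.06 with loess offsets, -0.01 with total counts, and -0.05 to 0.05 with 1 library left out. One strong Rasgrp1 interval had 0.02 with no filter and -0.1 to 0.07 with 1 library left out, and the Rasa1 interval had -0.17 to 0.02.

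With replicate number as a block, edgeR called 753 intervals in all, 4 in the window and 0 in the receptor to ERK list, and the block turned the second Spred2 interval to -0.0036. The deviations of libraries with one number had correlations of -0.004, 0.028 and 0.058, against -0.047 to 0.017 for libraries with different numbers. Correlations this small do not settle whether the numbers pair the libraries. Depth limits the single intervals: the 9 tested at Spry2 held 7 to 63 reads per library.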
